A study of Mus musculus with 67 samples.

Results

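The retina of photosensitive Abca4-/- Rdh8-/- mice at 3d was compared, over all genes, with the retina of NB mice of the same genotype. The 4 RNA libraries labelled 3d and the 6 labelled NB were taken by their group labels, which makes 10 of 17 retinal RNA libraries, 33 RNA libraries and 67 libraries of any kind in the study; the 4 libraries of the 1d retina served as the nearest other time. Of 16930 genes in the deposited retinal table, 16926 passed a minimum of 1 CPM (reads scaled to a common library size) in at least 3 retinal libraries and were tested. All mice of the retinal RNA groups used here, NB included, carry both null alleles on a C57BL/6J background, so no group is a wild type. Each library is the pooled retinal RNA of both eyes of 1 mouse, kept in RNAlater and sequenced as stranded mRNA. The labels do not spell out NB, do not say from which event the days count, and give no age or sex. The genotype removes a transporter of retinaldehyde in photoreceptor outer segments (Abca4) and a retinol dehydrogenase of the same compartment (Rdh8), which leaves the retina sensitive to light.

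Rods and cones hold the photopigments and the transduction cascade in outer segments, stacks of membrane that are renewed each day and taken up by the retinal pigment epithelium (RPE). Muller glia span the retina, clear glutamate and potassium, recycle chromophore for cones, and turn reactive after injury, with a rise of intermediate filaments and of genes of the leukaemia inhibitory factor (LIF) and STAT3 pathway. Microglia, the resident macrophages, survey the inner retina and move into the photoreceptor layer to engulf debris when photoreceptors are stressed or die.

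The 3d libraries held 13.29 to 13.82 M (mega) reads. The NB libraries fell into a deeper pair, named A1 and A2 here, with 29.83 to 32.27 M reads, and 4 shallower ones, B1 to B4, with 9.92 to 15.17 M reads. Log values of any pair of libraries of 1 group correlated across genes with r between 0.9842 and 0.9943 at 3d and between 0.9849 and 0.9933 in NB. Sex is not labelled, but Xist, the transcript of the inactive X, read 2906 CPM in library 3d 1 and 3636, 2996 and 3061 CPM in NB libraries A2, B3 and B4, and under 2 CPM in the other 6 libraries, which alone read the Y-linked Ddx3y above 1 CPM. Library 3d 1 is thus the single 3d library of its kind, and its place is given beside several results; the part of sex was not tested. A CPM here is not divided by gene length, so levels are compared between libraries and not between genes. Fold changes are differences of log2(CPM + 0.5), which understates the change of weakly read genes, with their standard errors, and every adjusted p-value is from limma's moderated test with Benjamini-Hochberg adjustment over the 16926 genes. A gene is said to rise, fall or be called when its adjusted p is under 0.05. A weakly read gene could meet the minimum of 1 CPM through the 3d libraries alone. Counts of rises in weakly read lists, such as the phagocyte, monocyte, class II and neutrophil ones, may therefore lean upward. In bulk RNA, fewer cells of a type and less RNA per cell cannot be told apart, which holds for each cell type named here.

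At 3d, 3265 genes were higher than in NB, 19.3% of those tested, and 4051 were lower, 23.9%. Most changes were small. The median log2 change was 0.37 among the higher genes and -0.31 among the lower ones, and 321 genes rose and 58 fell by 2-fold or more. Every 3d library lay above every NB library for 2293 genes (13.5%) and below for 3003 (17.7%). The share of genes called lower rose with abundance. Of 63 genes with a mean of 1000 CPM or more, 41 fell (65.1%) and 4 rose (6.35%), while of 5340 genes between 1 and 10 CPM, 555 fell (10.4%) and 946 rose (17.7%). The deposited scale weighs on this split: the authors' CPM columns sum to 0.945 to 0.957 times the nominal CPM total at 3d and 1.044 to 1.071 times in NB, and when each column was divided by its own sum the median log2 change over all genes moved from -0.02 to 0.125 and the calls became 6005 higher and 1799 lower, 76.9% higher in place of 44.6%. With TMM rescaling 44.7% of calls were higher, and with edgeR and DESeq2 on reads recovered from the columns 44.6% and 49.4%. Each of these rescales libraries by estimated factors, as the authors' scale already does. Their closeness to 44.6% therefore cannot decide between that scale and library totals. Small changes below are still relative to the deposited scale, and gene groups whose direction turns under library totals are named as such. Against 1d, 1657 genes were higher at 3d (9.79%) and 1969 lower (11.6%).

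**Figure D1:**
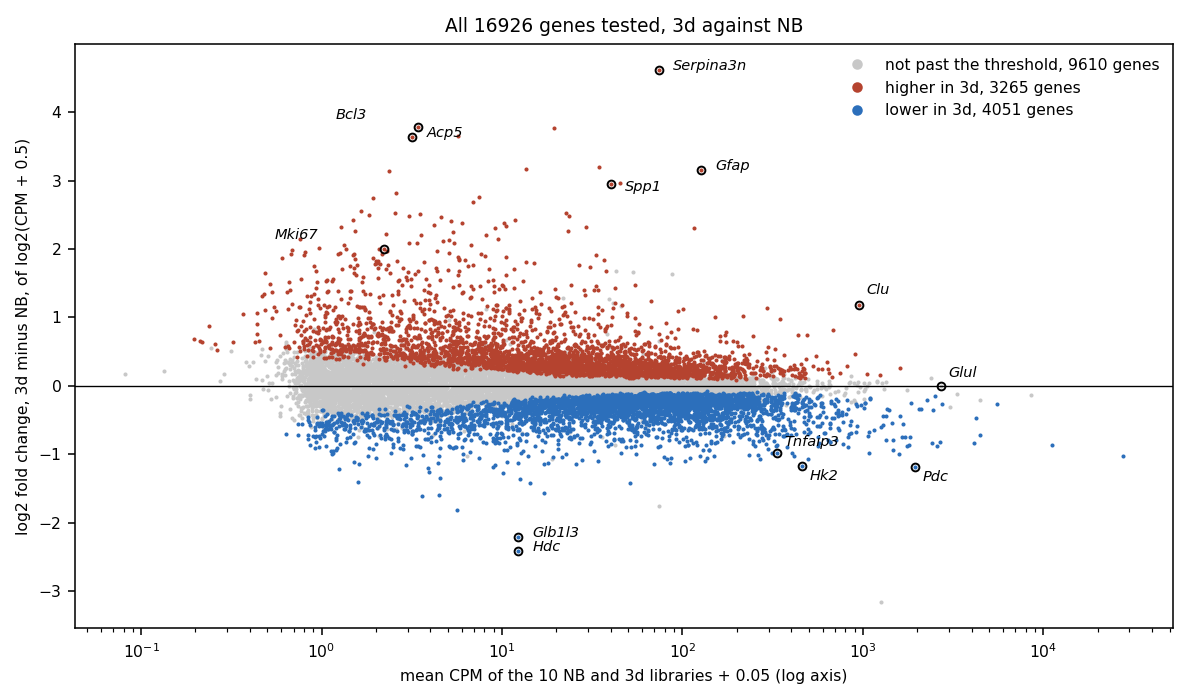
Mean CPM of the 10 libraries (x axis, log scale, with 0.05 added) against the log2 fold change of 3d minus NB (y axis) for the 16926 genes tested, 1 point a gene, red where called higher and blue where called lower. The highest fold changes belong to weakly and moderately read genes, and the genes of highest CPM on the right lie mostly below 0.

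Genes of the rod cascade were almost all lower. Of 22 genes of rod phototransduction, 21 fell, with a median log2 change of -0.83, and for all 21 every 3d library lay below every NB library. Gnat1, the alpha subunit of rod transducin, ranged in NB from 12300 to 14500 CPM with a median of 13600, and read 6980, 7830, 7600 and 7480 CPM in 3d libraries 1 to 4. No 3d library came near the NB range, and the 3d mean was 1.82-fold lower (log2 fold change -0.87 ± 0.14 SE, adjusted p = 8.19e-05). Other members spanned the cascade: Pde6b, a catalytic subunit of the rod phosphodiesterase, went from 2930 ± 124 CPM (SD, n = 6) to 1640 ± 104 (n = 4), and Gucy2f, a guanylate cyclase that restores cGMP, from 392 ± 27.9 to 198 ± 10.9. Rcvrn (recoverin), a calcium sensor of the rod cascade, fell less, by 0.45 ± 0.10 on the log2 scale (adjusted p = 0.000897). Sag, the rod arrestin that ends the light response, was the exception. Its NB libraries lay between 4150 and 5370 CPM around a median of 4750, and its 3d libraries at 3970, 4170, 4090 and 4070. The ranges overlap slightly, and the change of -0.21 ± 0.11 did not pass the test (adjusted p = 0.147).

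Within the 3d group the rod genes moved together by library. 18 of the 22 genes read lowest in library 3d 1 and 18 read highest in library 3d 2, and the summed CPM of the list ran from 41750 to 48150 at 3d against 78080 to 87030 in NB. Against 1d, where the sum was 25030 to 42810 CPM, 18 of the 22 genes were higher at 3d and none was lower. For Gnat1 the 1d libraries read 3680, 5150, 6840 and 4490 CPM, all below the 3d libraries, and 3d was higher by 0.60 ± 0.16 (adjusted p = 0.00868).

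Genes that shape the outer segment fell as a group too. All 17 tested genes of outer segment structure were lower, with a median log2 change of -0.72. Prph2 and Rom1, the paired tetraspanins of the disc rim, went from 5030 ± 278 to 2810 ± 173 CPM and from 2040 ± 194 to 1210 ± 79.0, and Rp1, a microtubule protein of the axoneme, from 2210 ± 128 to 1210 ± 62.0. Impg2, a proteoglycan of the matrix between photoreceptors, had the smallest fall of the list (-0.25 ± 0.06, adjusted p = 0.00269), a call that ended under scaling to library totals, and stood at 704 CPM on average at 1d against 449 in NB and 379 at 3d.

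The transcription factors that hold photoreceptor identity were lower in 13 of 14 cases (median -0.52), or 9 of 14 when columns were scaled to library totals. Library 3d 1 was the lowest 3d library for 13 of the 14. Nrl, the factor that commits precursors to the rod fate, ranged from 1800 to 2110 CPM in NB with a median of 2010, and read 885, 1080, 1030 and 994 CPM at 3d. All 3d libraries sat near the middle between 0 and the NB level, and the change was -1.0 ± 0.12 (adjusted p = 2.26e-06). At 1d Nrl had read 448, 657, 846 and 554 CPM, below every 3d library, and the 3d level was higher by 0.70 ± 0.13 (adjusted p = 0.0005). Crx, the homeodomain factor shared by rods and cones, fell from 1280 ± 79.7 to 799 ± 39.3 CPM, and Esrrb, a nuclear receptor of rods, from 521 ± 46.5 to 257 ± 31.7. Nr2e3, which represses cone genes in rods, fell by 0.43 ± 0.13 against NB (adjusted p = 0.00992) but stood 1.03 above 1d, where it averaged 208 CPM against 416 at 3d. Otx2, upstream of Crx in development, fell by 0.19 ± 0.05 (adjusted p = 0.00473), and Rxrg, a cone nuclear receptor, did not pass (0.16 ± 0.11, adjusted p = 0.251). The calls of Nr2e3 and Otx2 ended under scaling to library totals, which gave Rxrg a call as higher.

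The promoters of Crx itself and of Gngt1, the rod transducin gamma subunit (1020 ± 91.5 CPM in NB, 546 ± 14.1 at 3d), are shown because CRX binds a short homeodomain core that recurs before rod genes. The windows are RefSeq's, on build GRCm38.p6, and run from 250 bases before to 50 bases after the annotated start: chr7:15879906-15880205 on the minus strand for Crx and chr6:3993758-3994057 on the plus strand for Gngt1. Capitals mark the motif TAATCC on either strand. It begins 94 and 21 bases before the start in Crx and 44 bases before it in Gngt1, and overlaps no match of the other motifs searched.
Crx: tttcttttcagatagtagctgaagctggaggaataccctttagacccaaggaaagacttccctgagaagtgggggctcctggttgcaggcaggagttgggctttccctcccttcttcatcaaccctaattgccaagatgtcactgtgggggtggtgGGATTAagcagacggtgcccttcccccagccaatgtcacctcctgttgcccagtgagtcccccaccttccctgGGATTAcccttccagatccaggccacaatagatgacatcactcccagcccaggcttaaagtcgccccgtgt
Gngt1: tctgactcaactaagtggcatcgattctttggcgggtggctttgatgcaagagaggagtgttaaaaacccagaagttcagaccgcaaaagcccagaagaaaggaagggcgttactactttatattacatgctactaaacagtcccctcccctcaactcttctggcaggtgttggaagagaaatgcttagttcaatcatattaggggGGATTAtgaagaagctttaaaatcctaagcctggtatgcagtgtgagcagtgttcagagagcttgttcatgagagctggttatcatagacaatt
TAATCC was present in 8 of 15 windows of the rod list (53.3%, 15 of 22 genes having a window) and in 7.1% of all 32841 windows of the same length. A match is a description of the sequence.

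Of 11 cone genes, 5 fell and 2 rose (median -0.29), and 3 fell and 3 rose under scaling to library totals. The 2 rises are near the 19.3% of all genes called higher, while 23.9% of all genes were called lower. Arr3 (cone arrestin) fell from 385 ± 22.5 to 272 ± 26.3 CPM. Opn1mw, the medium-wave opsin, and Gnat2, the cone transducin alpha subunit, fell by 0.42 ± 0.12 and 0.32 ± 0.10 on the log2 scale (adjusted p = 0.00791 and 0.011), both calls that ended under that scaling. Opn1sw, the short-wave opsin, read between 302 and 461 CPM in NB with a median of 417, and 306, 358, 328 and 327 CPM at 3d. Those 3d values lie inside the NB range, and the change of -0.29 ± 0.18 did not pass (adjusted p = 0.209), though it did when the compared groups were fitted alone. At 1d, Opn1sw had read 72.7, 121, 202 and 96.2 CPM, all below the 3d libraries, and 3d was higher by 1.52 ± 0.20 (adjusted p = 1.24e-05). Altogether 8 of the 11 cone genes were higher at 3d than at 1d, beside 9.79% of all genes.

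Gnb3 went the other way. This beta subunit of cone transducin, which ON bipolar cells also use, read 353 to 420 CPM in NB with a median of 392, and 661, 655, 640 and 645 CPM at 3d. The 3d libraries were tightly grouped and all above NB (0.74 ± 0.05, adjusted p = 6.83e-09), while the 1d libraries, at 896, 928, 1020 and 993 CPM, were higher still. Pde6c, the catalytic subunit of the cone phosphodiesterase, rose as well, from 117 ± 12.2 to 159 ± 10.1 CPM.

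At the photoreceptor terminal, 13 of 18 genes fell and 2 rose (median -0.46). Lrit2, a leucine-rich repeat protein named with its synaptic relatives Lrit1 and Lrit3, fell from 327 ± 17.2 to 203 ± 6.31 CPM, Cacna1f, the calcium channel that gates release at the ribbon, from 662 ± 67.8 to 441 ± 60.2, and Slc17a7, the vesicular glutamate transporter, from 1510 ± 65.8 to 1100 ± 78.4. Ctbp2, whose product includes the ribbon protein RIBEYE, fell by 0.21 ± 0.05 (adjusted p = 0.00215), which did not hold under scaling to library totals. The 2 that rose, Dlgap3 and Rims1, are also expressed at other synapses; Rims1 changed by 0.19 ± 0.07 (adjusted p = 0.0235) and lost its call without library 3d 1, without 3d 2 or without NB B2.

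Many genes of inner retinal neurons were slightly higher on the deposited scale. Of 19 bipolar cell genes 11 rose and none fell (median 0.18), of 18 amacrine cell genes 14 rose and 1 fell (0.22), of 9 horizontal cell genes 4 rose and 1 fell (0.20), and of 16 ganglion cell genes 10 rose and none fell (0.24). Under scaling to library totals, where 6005 of all genes were higher, the higher counts were 18, 15, 5 and 15 and the medians 0.33, 0.37, 0.35 and 0.38 in the same order, with none lower. Trpm1, the channel of ON bipolar cells, ranged from 384 to 453 CPM in NB with a median of 408, and read 515, 533, 505 and 518 CPM at 3d. Every 3d library exceeded every NB library (0.32 ± 0.05, adjusted p = 0.000107), whereas Grm6, the glutamate receptor that controls it, went from 225 ± 6.79 to 244 ± 6.85 without passing (adjusted p = 0.13).

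Among amacrine genes, Pax6 rose by 0.23 ± 0.04, Gad1, which makes GABA, by 0.23 ± 0.05, and Slc18a3, the acetylcholine transporter of starburst cells, by 0.49 ± 0.13. Gjd2 (connexin 36), which couples AII amacrine cells, was the 1 called lower (-0.21 ± 0.06, adjusted p = 0.00449), and Calb1, a calcium buffer of horizontal cells, fell by 0.27 ± 0.07 (adjusted p = 0.00303). Both of those falls ended under scaling to library totals. In the ganglion cell list, Rbpms, an RNA-binding marker, went from 30.1 ± 1.47 to 36.4 ± 1.77 CPM, Thy1 from 150 ± 6.67 to 184 ± 16.8 and Gap43, a growth-cone protein, from 26.7 ± 1.34 to 33.4 ± 2.08 after a mean of 56.0 at 1d. The ganglion cell count depended on the libraries used: 4 genes were called without library 3d 1, which was the highest 3d library for 13 of the 16, and 6 with NB B1 to B4 alone. Rod transcripts took up fewer reads at 3d, and the part of this in the shares of other cells' genes was not tested.

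**Figure D2:**
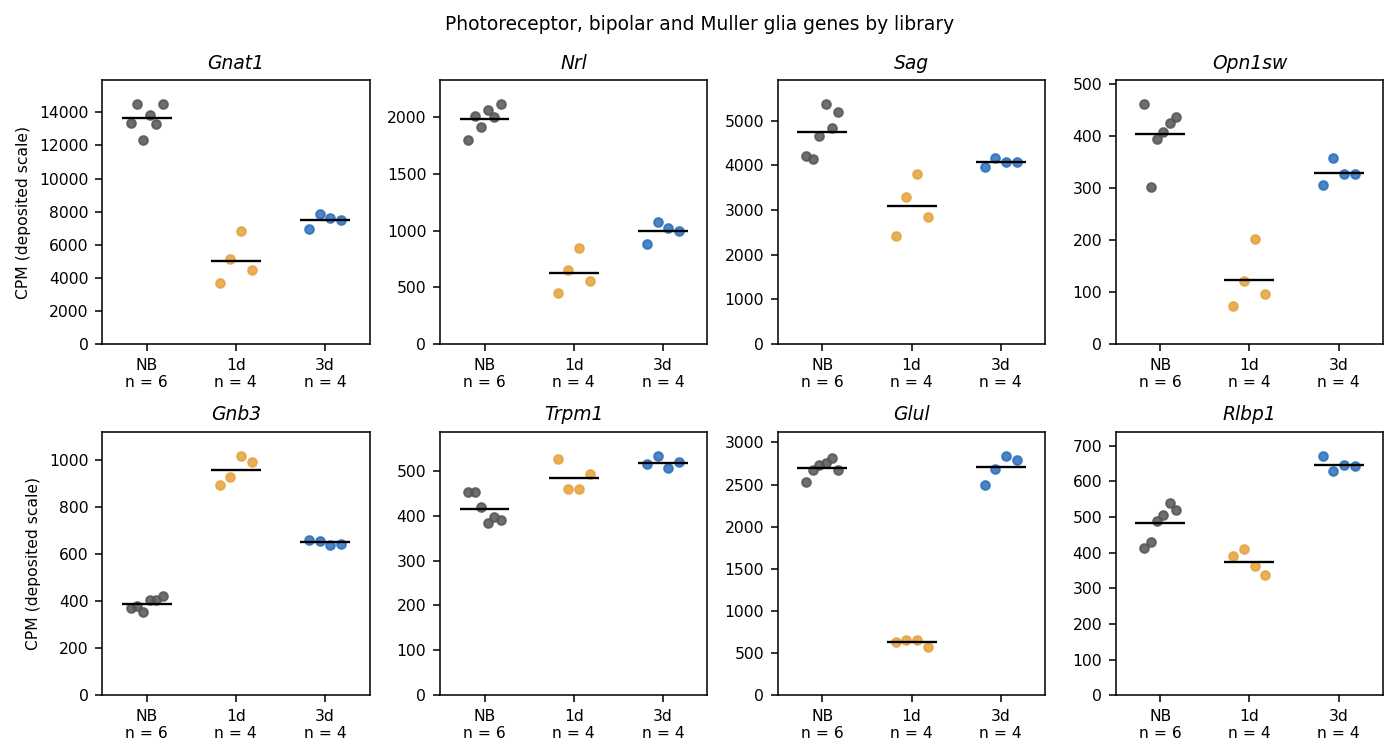
CPM of 8 photoreceptor, bipolar and Muller glia genes in each NB (n = 6), 1d (n = 4) and 3d (n = 4) library, 1 point a library and a black bar at the group mean, all axes from 0. Gnat1 and Nrl at 3d lie between 1d and NB, Trpm1 at 3d lies above NB, Glul lies near the NB range after 577 to 654 CPM at 1d, Rlbp1 exceeds both other groups, and Gnb3 lies between NB and a higher 1d.

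Muller glia genes of the resting state were at or above the NB level. Of 22, 14 rose and 1 fell, with a median log2 change of 0.38. Glul (glutamine synthetase), which detoxifies glutamate, read 2540 to 2810 CPM in NB with a median of 2700, and 2500, 2680, 2840 and 2790 CPM at 3d. The groups overlap, with a fitted change of 0.00 ± 0.06 (adjusted p = 0.987), although scaling to library totals called it higher. At 1d the same gene had read 634, 651, 654 and 577 CPM, so that 3d exceeded 1d by 2.10 ± 0.07 (adjusted p = 4.88e-14). Rlbp1, the retinaldehyde carrier CRALBP, read 413 to 539 CPM in NB with a median of 497, and 672, 630, 645 and 642 CPM at 3d. It stood above every NB and every 1d library (0.43 ± 0.07, adjusted p = 6.51e-05). Aqp4, the water channel of the glial endfeet, read 128 to 147 CPM in NB with a median of 135, close to its 125 to 141 CPM at 1d, and 257, 214, 220 and 220 CPM at 3d. All 4 libraries were above both groups, library 3d 1 the most (0.75 ± 0.06, adjusted p = 2.77e-08).

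Kcnj10, the potassium channel Kir4.1, and Slc1a3, the glutamate transporter GLAST, rose from 71.6 ± 2.01 to 107 ± 6.33 CPM and from 249 ± 12.8 to 372 ± 19.4. Clu (clusterin) and Apoe, secreted lipid-binding chaperones made by glia, rose from 631 ± 118 to 1420 ± 122 CPM and from 524 ± 57.5 to 915 ± 60.0. Clu had reached 1310 CPM on average by 1d, while Apoe was at 489 CPM there and exceeded 1d by 0.90 at 3d. Hes5, a Notch target, was the 1 that fell, from 5.18 ± 1.06 to 3.66 ± 0.466 CPM, a call that scaling to library totals ended. Abca8a, a lipid transporter, stood at 280 ± 3.36 CPM after 150 at 1d and against 305 ± 14.3 in NB, a difference that did not pass (adjusted p = 0.112).

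Reactive glial genes remained high but below their 1d level. Of 28 tested, 20 rose against NB and none fell (median 1.01), and 18 of the 28 were lower at 3d than at 1d. A2m, a protease inhibitor, read 10.2 to 14.2 CPM in NB with a median of 11.5, then 257, 244, 188 and 210 CPM at 1d and 113, 88.4, 96.9 and 81.0 CPM at 3d. The 3 groups were fully separate (3d against NB 2.96 ± 0.12, adjusted p = 2.01e-12; 3d against 1d -1.24 ± 0.13). Serpina3n, Gfap, Edn2 and Steap4 led the list with log2 changes of 4.61, 3.15, 3.76 and 3.65. Whether glia or other cells carried Edn2 or other listed transcripts was not tested. Vim, the filament partner of Gfap, averaged 195 ± 36.3 CPM in NB, 662 at 1d and 325 ± 73.3 at 3d. Ednrb, the endothelin receptor on Muller glia, stood at 8.54 ± 1.42 CPM in NB, 49.5 at 1d and 11.4 ± 0.854 at 3d (0.40 ± 0.12, adjusted p = 0.00982), with overlapping groups. Timp1, Cd44 and Lcn2 stood at 5.43 ± 0.813, 52.7 ± 7.72 and 12 ± 4.65 CPM against 0.569 ± 0.335, 15.9 ± 4.39 and 1.84 ± 0.531 in NB.

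In retinal injury, LIF made by Muller glia is known to signal through gp130 to STAT3. Lif read 0.428 to 1.11 CPM in NB with a median of 0.653, 21.2, 11.6, 10.2 and 13.2 CPM at 1d, and 2.92, 2.72, 1.79 and 1.86 CPM at 3d. All 3d libraries were above NB (1.22 ± 0.19, adjusted p = 5.17e-05) and all were below 1d (-2.34 ± 0.21). Among receptors, Osmr (oncostatin M receptor) read 6.44 to 10.7 CPM in NB with a median of 9.26, and 52.1, 45.1, 40.2 and 41.4 CPM at 3d. That is 4.96-fold on the CPM scale, with no overlap. Il6st, which codes for gp130, rose by 0.43 ± 0.04, and Lifr, the receptor chain specific to LIF and its relatives, fell by 0.38 ± 0.06 (87.4 ± 5.54 to 66.9 ± 3.60 CPM). Stat3 went from 68.0 ± 3.39 to 149 ± 11.6 CPM after 380 at 1d.

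Of the feedback inhibitors, Socs3 read 2.69 to 4.06 CPM in NB with a median of 3.17, 77.0, 68.9, 60.9 and 68.3 CPM at 1d, and 18, 14.5, 12.4 and 11.1 CPM at 3d. The 3d level was 4.28-fold above NB and below 1d (-2.28 ± 0.13), with no overlap on either side. Cish, another SOCS family inhibitor, had averaged 12.1 ± 0.489 CPM in NB and 37.4 at 1d and stood at 10.2 ± 1.01 at 3d, slightly below NB (-0.24 ± 0.08, adjusted p = 0.0264), a call lost under scaling to library totals, with NB B1 to B4 alone, without 3d 1 or 3d 2, and in DESeq2. Of all 18 tested genes of the LIF and STAT3 list, 11 rose, 4 fell and 13 were lower than at 1d. The 4 falls are near the 23.9% of all genes called lower. They became 1 under scaling to library totals and 2 with NB B1 to B4 alone or in DESeq2. Over all genes, 19.3% rose and 11.6% were lower than at 1d.

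The promoters of Gfap and Socs3, both reported STAT3 targets, are shown with the STAT site TTCNNNGAA in capitals, a palindrome at its fixed letters that matches both strands at once. The windows are chr11:102897151-102897450 on the minus strand for Gfap and chr11:117969317-117969616 on the minus strand for Socs3, from RefSeq on GRCm38.p6. The single match begins 2 bases before the annotated start in Gfap and 154 bases before it in Socs3.
Gfap: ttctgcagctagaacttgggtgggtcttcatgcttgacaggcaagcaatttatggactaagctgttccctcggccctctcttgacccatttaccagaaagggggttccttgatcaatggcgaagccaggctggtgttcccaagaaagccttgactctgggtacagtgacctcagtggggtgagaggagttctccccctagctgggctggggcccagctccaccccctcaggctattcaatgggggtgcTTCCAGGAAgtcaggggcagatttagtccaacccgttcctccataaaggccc
Socs3: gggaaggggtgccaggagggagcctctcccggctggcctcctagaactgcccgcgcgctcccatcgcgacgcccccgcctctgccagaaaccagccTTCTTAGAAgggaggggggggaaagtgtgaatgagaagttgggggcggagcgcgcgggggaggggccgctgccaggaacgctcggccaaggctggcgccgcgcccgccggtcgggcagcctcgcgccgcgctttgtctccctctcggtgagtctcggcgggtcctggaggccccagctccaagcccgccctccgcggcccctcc
The motif was present in 5 of 31 windows of the glial reactivity list (16.1%, 27 of 28 genes having a window) and in 8.3% of all windows, so most reactive genes had no such letters within these bases. In the LIF and STAT3 list it was present in 2 of 23 windows (8.7%). Some other lists had larger shares, such as 8 of 31 windows of the interferon response list (25.8%).

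Of 21 tested NF-kappaB genes, 10 rose and 3 fell (median 0.27), where 19.3% of all genes rose and 23.9% fell. The share that fell was thus below that of all genes. The non-canonical subunits Nfkb2 and Relb rose from 2.00 ± 0.372 to 6.07 ± 0.717 CPM and from 1.4 ± 0.352 to 5.12 ± 0.253, and the adhesion target Icam1 and the receptor Tnfrsf1a by 1.38 ± 0.16 and 1.80 ± 0.11. The kinase components Chuk and Ikbkg fell by 0.38 ± 0.05 and 0.30 ± 0.04. Tnfaip3 (A20), a deubiquitinase that limits NF-kappaB and is itself induced by it in many cells, was the lowest: its NB libraries read 381 to 460 CPM with a median of 417, and its 3d libraries 193, 218, 213 and 223 CPM. No 3d library reached the NB range (-0.98 ± 0.10, adjusted p = 4.76e-07). At 1d Tnfaip3 had been lower still, at 107, 143, 188 and 132 CPM. Library 3d 1 was the lowest of the 4 for Tnfaip3 as it was for most rod genes, and whether rods carry this transcript was not tested.

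Some microglial genes rose above NB, and others passed the test against 1d but not against NB. Csf1r, the receptor on which microglia depend, read 12.8 to 20.3 CPM in NB with a median of 15.1, 12.3, 10.5, 13 and 12.7 CPM at 1d, and 34.0, 36.5, 37.2 and 38.3 CPM at 3d. Every 3d library exceeded every other one (1.21 ± 0.11 against NB, adjusted p = 1.36e-07; 1.56 ± 0.12 against 1d). Its ligand Csf1 rose from 5.35 ± 0.866 to 14.5 ± 1.12 CPM after 27.0 at 1d. P2ry12, the purinergic receptor that marks surveying microglia, read 2.49 to 3.75 CPM in NB with a median of 2.85, 1.4, 0.397, 0.698 and 0.662 CPM at 1d, and 3.96, 3.44, 2.86 and 3.80 CPM at 3d. Its 3d libraries overlap NB (0.21 ± 0.18, adjusted p = 0.345) and all exceed 1d (1.69 ± 0.19, adjusted p = 3.01e-06). Tmem119, Siglech and P2ry13, markers of the same state, did likewise, with changes of 0.32, 0.09 and 0.33 from NB that did not pass and of 1.01, 1.09 and 1.18 from 1d that did. Cx3cr1, the fractalkine receptor, rose against NB by 1.53 ± 0.13.

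Over the 17 tested genes of the homeostatic list, 10 rose, 1 fell and 11 were higher than at 1d; with NB B1 to B4 alone 7 rose. The 1 that fell, Mef2c (148 ± 5.96 to 81.1 ± 5.14 CPM), codes for a transcription factor that neurons express as well.

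Genes of activated phagocytes rose broadly: 32 of 35 against NB, none lower (median 1.1). Acp5, the tartrate-resistant acid phosphatase of osteoclasts and macrophages, was read 12 times in the 6 NB libraries and 8 times in the 4 libraries of 1d, against 431 reads at 3d, where it stood at 9.30, 6.09, 9.58 and 5.39 CPM. Atp6v0d2, a proton pump subunit typical of osteoclasts and of lipid-laden macrophages, had 1 read in NB, 1 read at 1d and 89 reads at 3d (1.18, 1.72, 2.43 and 0.967 CPM). Both were hardly read in NB or at 1d, so their fitted changes of 3.64 and 1.99 rest on the added 0.5. Of these groups only 3d reached 1 CPM, so the entry of both genes into the test was tied to their rise. Trem2, the lipid receptor of phagocytic microglia, read 0.459 to 1.18 CPM in NB with a median of 0.576, 0.746, 0.893, 0.785 and 1.16 CPM at 1d, and 4.03, 3.72, 4.36 and 4.14 CPM at 3d. Its adaptor Tyrobp (DAP12) went from 1.28 ± 0.412 through 2.88 to 8.44 ± 0.667 CPM. Both rose against NB and against 1d.

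Other members were lower at 3d than at 1d. Lgals3 (galectin 3) averaged 9.09 ± 3.08 CPM in NB, 51.1 at 1d and 19.3 ± 2.80 at 3d, and Hmox1 (heme oxygenase 1) 3.52 ± 0.589, 27.5 and 9.70 ± 0.913. Itgax (CD11c) and Gpnmb, both of damage-associated microglia, did not differ past the threshold between 1d and 3d (0.08, adjusted p = 0.831, and -0.49, adjusted p = 0.42) while exceeding NB by 1.56 ± 0.19 and 1.67 ± 0.36. Against 1d, 17 of the 35 were higher and 7 lower. Cd52, a lymphocyte and microglial surface peptide, was at 4.44 ± 0.644 CPM and 4.98 ± 1.2 in NB, which did not pass. Clec7a, Mpeg1, Lyz2, Spp1 and Cd68 rose by 2.75, 3.16, 2.76, 2.95 and 2.69. Among the 3d libraries, 20 of 35 members were highest in library 3d 1, the library lowest for most rod genes, and 16 were lowest in 3d 2.

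Markers shared by monocytes and macrophages rose in 14 of 16 tested cases (median 1.38); the other 14 listed genes were not tested. Adgre1 (F4/80) read 0.214 to 1.1 CPM in NB with a median of 0.789, 2.14, 0.695, 0.960 and 0.828 CPM at 1d, and 8.61, 4.37, 6.51 and 6.22 CPM at 3d. Again all 3d libraries were above both groups (2.49 ± 0.25, adjusted p = 3.21e-07). Ptprc (CD45), Itgam (CD11b) and Spi1 (PU.1), which microglia share with blood-derived cells, rose by 1.83 ± 0.15, 1.15 ± 0.22 and 1.31 ± 0.18. Mrc1 and Lyve1, markers of perivascular macrophages, changed by 0.83 ± 0.35 and 0.05 ± 0.09 without passing (adjusted p = 0.0627 and 0.678), though Mrc1 passed in both count tests. The list sums to 31.31 to 35.92 CPM in NB and 69.97 to 85.79 CPM at 3d, and whether resident or entering cells carry it was not tested.

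**Figure D3:**
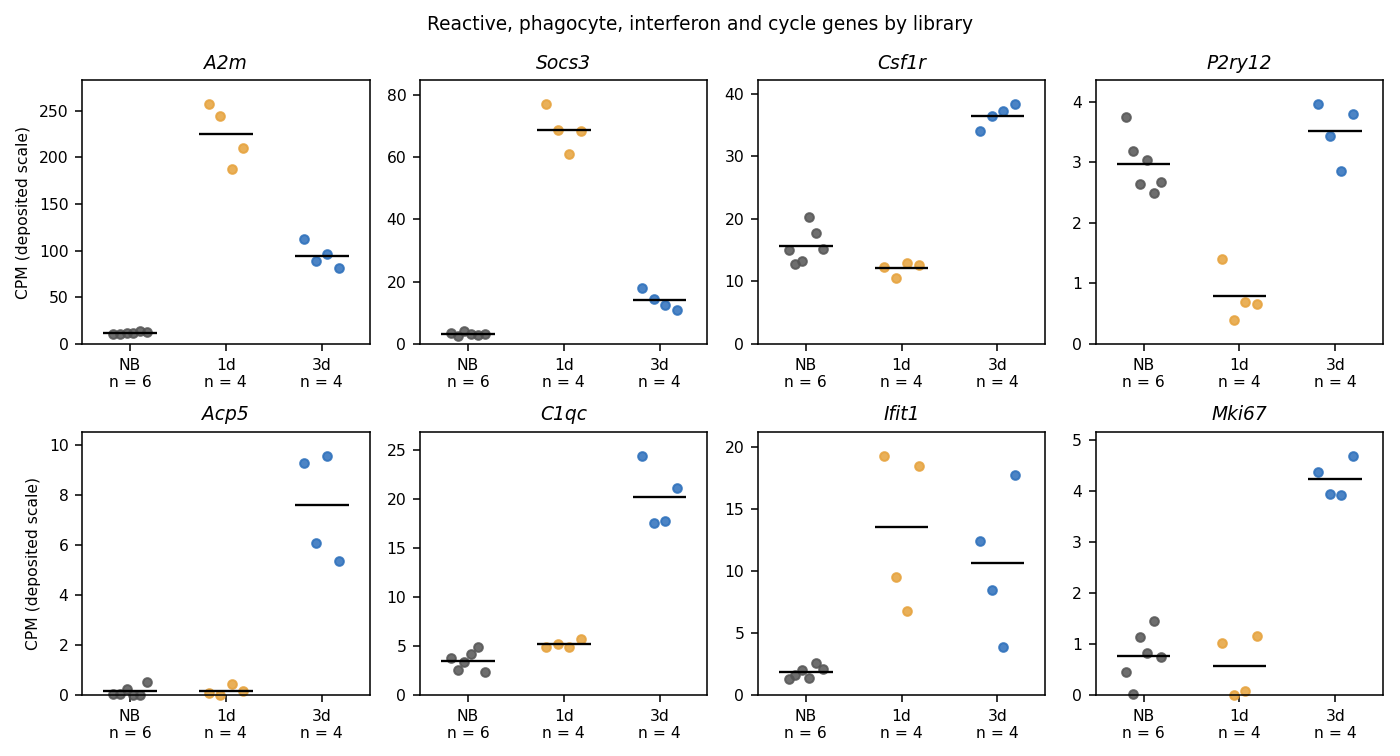
CPM of 8 reactive glial, phagocyte, interferon and cell cycle genes in each NB (n = 6), 1d (n = 4) and 3d (n = 4) library, 1 point a library and a black bar at the group mean, all axes from 0. A2m and Socs3 are highest at 1d, Csf1r, Acp5, C1qc and Mki67 are highest at 3d, P2ry12 is lowest at 1d, and Ifit1 is spread from 3.86 to 17.8 CPM at 3d.

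Complement genes rose in 14 of 22 tested cases and fell in 1 (median 1.17). The classical starter C1q was carried by its 3 chains, of which C1qc read 2.35 to 4.91 CPM in NB with a median of 3.59, 4.94, 5.26, 4.89 and 5.71 CPM at 1d, and 24.4, 17.6, 17.7 and 21.1 CPM at 3d. The 3d libraries stood apart from both other groups (2.38 ± 0.16 against NB, adjusted p = 1.80e-09). C3, the central component, followed another course: NB 1.23 to 2.07 CPM with a median of 1.77, 1d 21.9, 11.7, 8.11 and 18.4 CPM, and 3d 9.37, 8.38, 9.58 and 8.98 CPM. It was 5.24-fold above NB and overlapped 1d (-0.60 ± 0.22, adjusted p = 0.0545). The C3a receptor C3ar1, C4b and the factor I gene Cfi rose by 2.82, 3.2 and 1.94; reads of C4b and its near copy C4a may have been split between them. Of the regulators, Serping1 (C1 inhibitor) rose from 7.61 ± 1.62 to 45.4 ± 3.86 CPM, and Vtn (vitronectin), which also comes from photoreceptors, fell from 755 ± 66.7 to 515 ± 25.4.

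All 12 tested genes of Fc receptors and their adaptors rose (median 1.33), as did 18 of 22 genes of MHC class I and the immunoproteasome (1.14) and 8 of 11 of MHC class II (0.71, or 6 of 11 with NB B1 to B4 alone). Fcgr3 went from 0.93 ± 0.189 to 4.34 ± 0.712 CPM and its signalling chain Fcer1g from 1.4 ± 0.281 to 4.76 ± 0.915, while Syk, the kinase they recruit, rose by 1.18 ± 0.26 with overlapping groups. H2-K1, a class I heavy chain, read 13.8 to 18.2 CPM in NB with a median of 15.2, and 66.6, 49.4, 53.1 and 70.3 CPM at 3d. That is above every NB library (1.91 ± 0.13, adjusted p = 3.06e-09) and within the 1d range of 39.5 to 70.9. B2m, its light chain, rose by 1.83 ± 0.15, and Nlrc5, the class I transactivator, by 2.51 ± 0.18 after a mean of 33.4 CPM at 1d against 7.38 ± 1.95 at 3d. H2 genes resemble each other, so their single values are uncertain.

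Class II was read at low levels. H2-Aa, an alpha chain, read 0.415 to 0.971 CPM in NB with a median of 0.568, 0.839, 0.198, 0.611 and 0.579 CPM at 1d, and 1.39, 1.29, 2.14 and 1.59 CPM at 3d. The 3d values rest on 91 reads and the NB values on 61, and no 3d library overlaps either group (0.94 ± 0.20, adjusted p = 0.00101; 1.01 ± 0.22 above 1d, adjusted p = 0.0025). Of these groups only 3d reached 1 CPM, so the entry of H2-Aa into the test was tied to its rise. H2-Eb1, a beta chain, rose by 0.71 ± 0.21 (adjusted p = 0.00923) with overlapping groups, and lost the call with NB B1 to B4 alone (adjusted p = 0.0517).

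The promoter of H2-Eb1 is shown because class II promoters share a Y box, a CCAAT element read here as its core ATTGG on either strand. RefSeq's window on GRCm38.p6 is chr17:34305617-34305916 on the plus strand, and the 2 cores in capitals begin 59 and 35 bases before the start, on opposite strands.
H2-Eb1: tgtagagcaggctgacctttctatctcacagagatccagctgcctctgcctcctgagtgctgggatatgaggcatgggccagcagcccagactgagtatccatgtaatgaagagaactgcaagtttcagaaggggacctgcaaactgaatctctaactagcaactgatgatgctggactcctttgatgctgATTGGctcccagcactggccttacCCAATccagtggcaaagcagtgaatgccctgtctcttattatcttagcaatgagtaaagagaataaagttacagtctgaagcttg
So short a motif is common: 6 of 9 class II windows held it (66.7%, 8 of 11 genes having a window) and 37.4% of all windows.

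Interferon-stimulated genes were higher in 30 of 32 tested cases and lower in none (median 1.35), and all 12 tested guanylate-binding and immunity-related GTPases (GBP and IRG) were higher (1.46). Ifit1, which binds foreign RNA ends, read 1.28 to 2.63 CPM in NB with a median of 1.84, 19.3, 9.52, 6.80 and 18.5 CPM at 1d, and 12.4, 8.45, 3.86 and 17.8 CPM at 3d. All 3d libraries exceeded NB (2.09 ± 0.34, adjusted p = 7.23e-05), but they spread over a range like that of the 1d libraries, and 3d and 1d overlap (adjusted p = 0.505). Gbp3 read 2.14 to 3.53 CPM in NB with a median of 3.01, and 17.4, 11.8, 10.2 and 23.9 CPM at 3d. Irgm2 read 1.28 to 2.65 CPM in NB with a median of 1.65, and 7.15, 5.01, 4.36 and 9.74 CPM at 3d. In both, library 3d 4 was the highest and 3d 3 the lowest, as for Ifit1.

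The same library order ran through the lists. 28 of the 32 interferon genes were highest in library 3d 4 and 24 were lowest in 3d 3, and 10 of the 12 GTPases were highest in 3d 4. The interferon list summed to 386.3 to 712.0 CPM at 3d, 224.5 to 244.0 in NB and 698.5 to 1104 at 1d. Oasl2, Isg15 and Bst2 stood at 47.5 ± 24.7, 4.47 ± 2.53 and 10.5 ± 3.84 CPM against 7.33 ± 0.931, 0.937 ± 0.218 and 1.84 ± 0.839 in NB. Among regulators, Irf8, a factor of myeloid cells too, rose by 1.33 ± 0.17, and Irf7, the amplifier of type I interferon, changed by 0.12 ± 0.21, which did not pass (adjusted p = 0.681) and differed from 1d by -1.64. Isg20, an RNA exonuclease, did not pass either. Against 1d, 12 of the 32 interferon genes were lower at 3d. Near-identical members (Ifit3 and Ifit3b, Gbp2 and Gbp2b) may share reads.

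Promoters of Ifit1 and Irgm2 are shown with the interferon response core GAAANNGAA, searched on both strands, in capitals. RefSeq's windows on GRCm38.p6 are chr19:34640639-34640938 for Ifit1 and chr11:58214727-58215026 for Irgm2, both on the plus strand. Ifit1 holds 3 matches, the first 2 overlapping, that begin between 109 and 84 bases before the start, and Irgm2 holds 1 that begins 64 bases before it. No match overlaps one of the other motifs, though the Irgm2 window also holds a STAT site.
Ifit1: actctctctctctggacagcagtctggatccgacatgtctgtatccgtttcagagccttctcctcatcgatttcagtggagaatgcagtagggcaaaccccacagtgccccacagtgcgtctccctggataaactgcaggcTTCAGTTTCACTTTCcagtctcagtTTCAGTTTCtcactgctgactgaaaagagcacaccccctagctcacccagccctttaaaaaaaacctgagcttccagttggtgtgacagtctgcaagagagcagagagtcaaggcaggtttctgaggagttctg
Irgm2: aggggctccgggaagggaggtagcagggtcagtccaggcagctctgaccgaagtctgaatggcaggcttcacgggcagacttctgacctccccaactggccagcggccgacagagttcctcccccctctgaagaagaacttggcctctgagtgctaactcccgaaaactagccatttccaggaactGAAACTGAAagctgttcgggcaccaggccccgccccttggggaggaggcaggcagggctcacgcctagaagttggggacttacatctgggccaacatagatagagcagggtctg
The core was present in 8 of 9 GBP and IRG windows (88.9%, 8 of 12 genes having a window), in 14 of 31 interferon windows (45.2%, 24 of 32 genes) and in 8.6% of all windows.

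**Figure D4:**
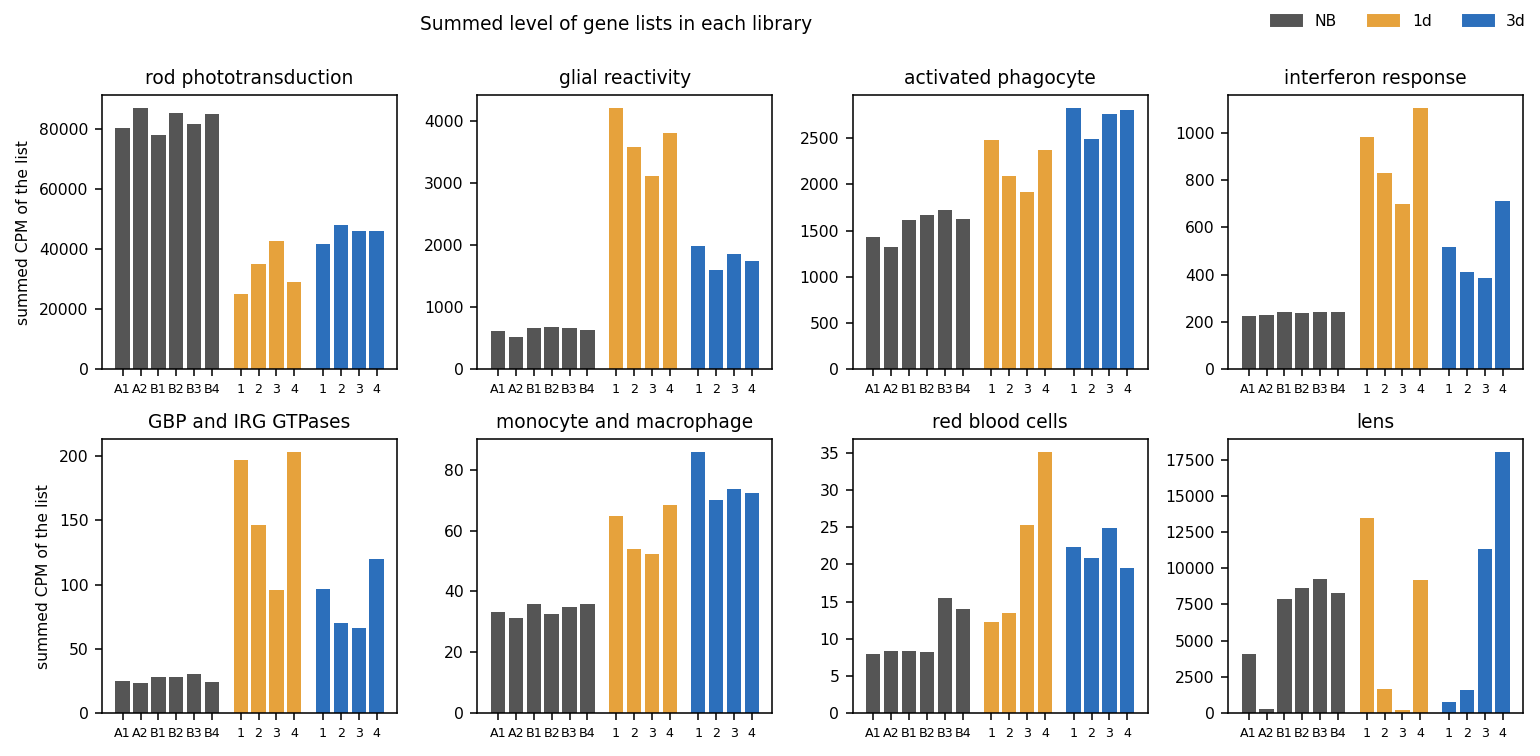
Summed CPM of 8 gene lists in each NB, 1d and 3d library (1 bar a library, axes from 0, NB libraries A1 to B4 in order). Rod sums stay low at 3d, glial reactivity sums lie between NB and 1d, interferon sums lie above NB and overlap 1d, phagocyte and monocyte sums are at or above 1d, and lens sums differ by library in every group.

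Chemokines and adhesion genes rose in 14 of 17 tested cases (median 0.68), with the inflammatory chemokines well below 1d. Ccl2, which draws monocytes, had 2 reads in NB, 133 at 1d and 19 at 3d (0.416, 0.358, 0.286 and 0.276 CPM). Its 3d libraries were just above NB (0.68 ± 0.22, adjusted p = 0.019) and below 1d (-1.93); the NB call ended without library 3d 1 and with a pseudocount of 2. Cxcl10, an interferon-induced chemokine, read 0 to 0.664 CPM in NB with a median of 0.0900, 9.79, 3.57, 4.27 and 8.03 CPM at 1d, and 0.62, 1.1, 0.286 and 0.898 CPM at 3d. The 3d and NB ranges overlap (0.90 ± 0.27, adjusted p = 0.0123), and the call ended without library 3d 2 and with a pseudocount of 2. Ccl12 did not pass against NB (0.22 ± 0.18, adjusted p = 0.347) after a mean of 2.12 CPM at 1d. Ccl3, made by microglia, and Vcam1, an adhesion molecule of Muller glia and vessels, remained above NB by 1.04 ± 0.16 and 1.3 ± 0.14.

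Lysosomal genes rose in 25 of 39 cases and fell in 3 (median 0.34), the 3 falls becoming none under scaling to library totals and 1 without library 3d 1. Ctsd, the main aspartic cathepsin, went from 155 ± 22.3 to 312 ± 9.63 CPM, Grn (progranulin) from 39.1 ± 2.76 to 78.0 ± 4.09 and Ctsk, a cathepsin of osteoclasts and macrophages, from 2.49 ± 0.584 to 6.76 ± 1.02. Ctsf was among those that fell, by 0.23 ± 0.05. In the engulfment list 19 of 24 rose and 2 fell (0.56). The bridging ligand Pros1 rose from 9.14 ± 1.19 to 23 ± 1.67 CPM, the receptor Mertk by 0.46 ± 0.09 with overlapping groups, and Havcr2 (TIM-3) by 1.38 ± 0.19. Of NB, 1d and 3d, Havcr2 reached 1 CPM only at 3d, so its entry into the test was tied to its rise. Scarb1, a lipoprotein receptor, fell by 0.49 ± 0.07. Of 26 lipid handling genes 13 rose and 3 fell (0.30), among them Abca1, a cholesterol exporter (35 ± 4.24 to 71.1 ± 7.66 CPM), Lcat, which esterifies cholesterol on lipoproteins (1.69 ± 0.292 to 4.13 ± 0.108), and Plin2, a lipid droplet coat (7.04 ± 0.783 to 16.5 ± 1.23).

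**Figure D5:**
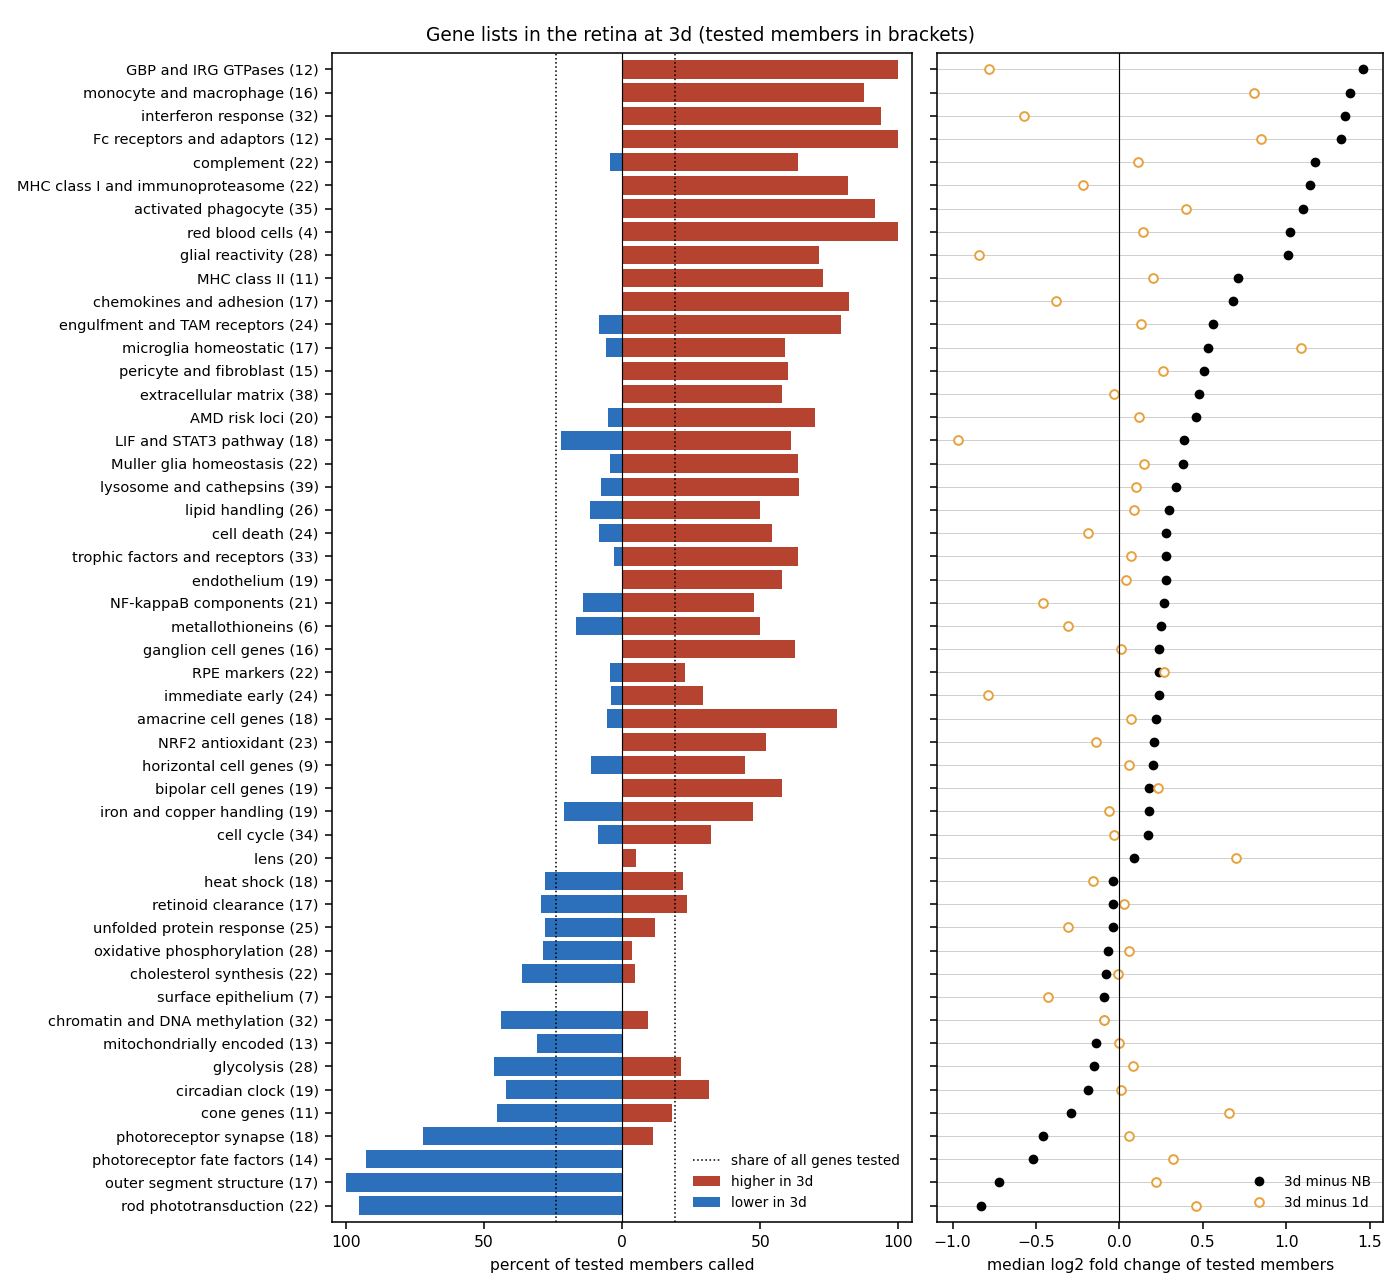
Left, percent of the tested members of each gene list (number tested in brackets) called higher (red) or lower (blue) at 3d against NB, with dotted lines at 19.3% and 23.9%, the shares over all genes. Right, median log2 fold change of the members against NB (black) and against 1d (open), which lie on opposite sides of 0 for the rod, reactive glial and interferon lists.

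Transcripts of dividing cells were higher at 3d in part of the cell cycle list, in which 11 of 34 rose and 3 fell (median 0.17). Mki67, present in cycling cells, read 0.0332 to 1.45 CPM in NB with a median of 0.788, 1.03, 0, 0.0872 and 1.16 CPM at 1d, and 4.37, 3.94, 3.93 and 4.70 CPM at 3d. Top2a, a topoisomerase of S and G2 phase, read 0.166 to 1.76 CPM in NB with a median of 0.561, 1.21, 0.794, 0.0872 and 0.828 CPM at 1d, and 3.4, 3.15, 3.72 and 4.14 CPM at 3d. Both were above every other library at 3d (2.00 ± 0.39, adjusted p = 0.000425, and 1.86 ± 0.34, adjusted p = 0.000227), on 241 and 205 reads over the 4 libraries. The kinase gene Cdk1 and the nucleotide reductase subunit Rrm2 rose by 1.08 ± 0.23 and 1.22 ± 0.20. Of NB, 1d and 3d, Rrm2 reached 1 CPM only at 3d, so its entry into the test was tied to its rise. Birc5 (survivin) rose by 0.67 ± 0.23 (adjusted p = 0.0247) but lost the call without 3d 2, 3d 3 or 3d 4, with NB B1 to B4 alone and with a pseudocount of 0.1. Other cycle genes did not follow: Ccnb2 changed by 0.00 ± 0.20, and Aurka and Ccna2 fell by 0.51 ± 0.15 and 0.30 ± 0.09, the latter not under scaling to library totals. Cdkn1a (p21), an arrest gene, rose from 2.2 ± 0.516 to 5.38 ± 0.697 CPM. Which cells carried these transcripts was not tested.

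Many vessel and matrix genes were higher at 3d. Of 19 endothelial genes 11 were higher and none lower (median 0.28), of 15 tested pericyte and fibroblast genes 9 and none (0.51), and of 38 tested matrix genes 22 and none (0.48). In the endothelium list 6 were higher and 1 lower when NB B1 to B4, 1d and 3d were fitted alone, with the replicate block and without it. Vwf, the clotting factor stored by endothelium, read 5.74 to 7.20 CPM in NB with a median of 6.76, 28.1, 22, 29.6 and 28.9 CPM at 1d, and 18.3, 21.1, 20.2 and 16.3 CPM at 3d. It lay between the other groups without overlap (1.43 ± 0.09 against NB, adjusted p = 1.47e-09). Kdr, the main VEGF receptor, rose from 250 ± 7.90 to 494 ± 40.3 CPM, and Muller glia and neurons express it as well. Cldn5, the tight junction claudin of the blood-retina barrier, went from 10.2 ± 2.21 to 17.3 ± 1.31 CPM, and Cspg4 (NG2) of pericytes from 3.63 ± 0.469 to 7.18 ± 1.33. Thbs1, an antiangiogenic matrix protein, read 15.3 to 23.1 CPM in NB with a median of 20.5, 14.6, 13.7, 18.3 and 18.1 CPM at 1d, and 30.0, 41.3, 37.5 and 36.4 CPM at 3d. The 1d libraries lay below the NB median, and 3d exceeded 1d (1.14 ± 0.14 above 1d, adjusted p = 7.14e-06). The proteases Plau and Mmp12 rose by 2.56 ± 0.16 and 2.32 ± 0.20, and Timp3, a metalloproteinase inhibitor of Bruch's membrane, by 0.43 ± 0.11.

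All 4 tested globin genes were higher (median 1.02). Hbb-bs read 3.53 to 8.23 CPM in NB with a median of 4.44, and 12.2, 10.0, 13 and 9.12 CPM at 3d, and the list summed to 19.48 to 24.88 CPM at 3d, 12.30 to 35.09 at 1d and 7.993 to 15.48 in NB. Red blood cell transcripts thus differed between groups, and their part in the vascular results was not tested.

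Among trophic genes 21 of 33 rose and 1 fell (median 0.28), or 14 rose with NB B1 to B4 alone. Fgf2, a survival factor for photoreceptors, read 17.2 to 20.9 CPM in NB with a median of 18.1, 62.8, 62.2, 54.3 and 61.5 CPM at 1d, and 43.1, 33.2, 31.0 and 29.7 CPM at 3d. No group overlapped another (0.86 ± 0.09 against NB, adjusted p = 4.04e-07). Tgfbr2, a TGF-beta receptor, rose from 5.91 ± 0.884 to 13.3 ± 0.414 CPM and exceeded 1d by 0.55.

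Genes of glucose use were lower in several places. Of 28 tested identifiers of glycolysis 13 fell and 6 rose (median -0.15; 9 fell and 11 rose under scaling to library totals). Hk2, the hexokinase of photoreceptors, read 489 to 783 CPM in NB with a median of 545, 235, 260, 304 and 258 CPM at 1d, and 238, 275, 271 and 250 CPM at 3d. It had the largest fall of the list (-1.18 ± 0.10, adjusted p = 5.13e-08), and 3d did not differ from 1d past the threshold (-0.03 ± 0.11, adjusted p = 0.901). Pfkfb2, which tunes phosphofructokinase, Slc16a3, a lactate exporter, and Ldha fell by 0.89 ± 0.09, 0.80 ± 0.10 and 0.52 ± 0.06. For oxidative phosphorylation 8 of 28 fell and 1 rose (median -0.07), for mitochondrially encoded genes 4 of 13 fell (-0.14) and for cholesterol synthesis 8 of 22 fell and 1 rose (-0.08). For oxidative phosphorylation and the mitochondrially encoded genes the lower counts are near the 23.9% of all genes called lower. These small shifts turned with the scale: under library totals the counts were 1 lower and 8 higher for oxidative phosphorylation, none for mitochondrially encoded genes, and 2 lower and 5 higher for cholesterol synthesis. Under that scaling 6005 of all 16926 genes were higher and 1799 lower.

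Metallothionein Mt2, which binds zinc and is induced by glucocorticoids and cytokines, read 8.89 to 13.7 CPM in NB with a median of 10.9, 110, 77.9, 68.1 and 103 CPM at 1d, and 60.7, 53.4, 54.5 and 56.3 CPM at 3d. It was 5.12-fold above NB with no overlap, and Mt1 rose by 1.43 ± 0.12. Of 6 tested metallothionein genes 3 rose and 1 fell (median 0.25), beside 19.3% and 23.9% of all genes. Of 23 tested NRF2 targets 12 rose and none fell (median 0.21), with Prdx6, a peroxiredoxin of glia, going from 136 ± 6.41 to 234 ± 14.5 CPM. In the heat shock list 4 rose and 5 fell of 18 (-0.04; 7 and 4 under library totals), near the 19.3% and 23.9% of all genes. The near-identical Hspa1a and Hspa1b fell by 0.69 ± 0.13 and 0.64 ± 0.14, and the co-chaperone Bag3 rose by 0.97 ± 0.13. For the unfolded protein response 3 rose and 7 fell of 25 (-0.04; 8 and 1 under library totals), and 16 of the 25 were lower than at 1d. The 7 falls are near the 23.9% of all genes called lower, while 11.6% of all genes were lower than at 1d. Ddit3 (CHOP) and Hspa5 (BiP) did not pass against NB (-0.01 ± 0.08 and -0.05 ± 0.08) and were below 1d (-0.65 and -0.53).

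Of 19 tested iron and copper genes 9 rose and 4 fell (2 under library totals), the falls being near the 23.9% of all genes called lower. Trf (transferrin) rose from 6.64 ± 1.88 to 23.9 ± 2.97 CPM, Heph, a ferroxidase, rose by 0.49 ± 0.15 (not without library 3d 4), and Tfrc, the transferrin receptor, fell from 189 ± 14.3 to 150 ± 11.2. Of 24 tested cell death genes 13 rose and 2 fell (0.28). The inflammasome parts Casp1 and Pycard rose by 1.11 ± 0.26 and 1.16 ± 0.18, Fas by 0.87 ± 0.20 and Ripk1 by 0.31 ± 0.09, the last not without library 3d 4. The survival gene Bcl2 fell from 26.8 ± 1.53 to 16.6 ± 1.09 CPM.

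Of 24 tested immediate early genes 7 rose and 1 fell, but 4 rose with NB B1 to B4 alone and 4 when any of 3d 1, 3d 2, 3d 3 or NB A1 was left out. Fosl1, an AP-1 subunit, had 3 reads in NB, 439 at 1d and 87 at 3d (1.87, 1.22, 1.29 and 1.73 CPM), which put every 3d library above NB and below 1d. Atf3, a stress-induced factor of the same superfamily, rose by 0.81 ± 0.13 over NB (4.36 ± 1.00 to 8 ± 1.63 CPM) and was below 1d (-2.41).

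Of 32 chromatin and DNA methylation genes 14 fell and 3 rose (median -0.09; 5 fell and 9 rose under library totals). Tet3 and Tet2, which oxidise methylcytosine, fell from 331 ± 18.7 to 214 ± 17.0 CPM and from 130 ± 6.63 to 98.8 ± 7.87, Sirt1, a deacetylase, fell by 0.41 ± 0.06, and Dnmt3a, a de novo methyltransferase, by 0.23 ± 0.06, the last not under library totals. Uhrf1, which guides maintenance methylation in dividing cells, read 0.184 to 0.535 CPM in NB with a median of 0.441, 2.98, 2.38, 2.01 and 2.32 CPM at 1d, and 2.29, 1.22, 3.22 and 1.86 CPM at 3d. It was above NB at both times (1.54 ± 0.22, adjusted p = 1.94e-05). Of 19 clock genes 8 fell and 6 rose (4 and 8 under library totals), with Bhlhe41 lower by 0.38 ± 0.06 and Npas2 higher by 0.56 ± 0.13. The hour of dissection is not given in the labels.

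The deleted genes themselves were read in every library. Abca4 ranged from 696 to 928 CPM in NB with a median of 767, and stood at 439, 461, 450 and 444 CPM at 3d. Rdh8 ranged from 32.2 to 49.0 CPM in NB with a median of 38.6, and stood at 41.3, 48.8, 47.9 and 45.5 CPM at 3d. Abca4 fell (-0.82 ± 0.08, adjusted p = 1.71e-07) and Rdh8 did not pass (0.19 ± 0.11, adjusted p = 0.178, though called under library totals). Reads over a whole gene do not show whether its deletion is present. Of 17 genes of retinoid clearance, 5 fell and 4 rose, near the 23.9% and 19.3% of all genes (5 and 7 under library totals). Of 20 tested genes at or near loci linked to age-related macular degeneration, 14 rose and 1, Vtn, fell (0.46). Besides C3, Cfi, Apoe, Abca1, Cx3cr1 and Timp3, given above, they include Htra1, a serine protease, at 65.5 ± 5.60 CPM in NB and 92.1 ± 6.30 at 3d.

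Hdc, histidine decarboxylase, which makes histamine, led the genes that fell with no overlap between groups: 11.2 to 22.9 CPM in NB with a median of 21.2, and 2.15, 3.08, 3.29 and 3.25 CPM at 3d. The 3d mean was 6.28-fold lower (-2.42 ± 0.23, adjusted p = 2.49e-07), beside 2.05, 1.89, 2.18 and 0.745 CPM at 1d. After it came Glb1l3, a beta-galactosidase relative (18.2 ± 7.88 to 3.4 ± 1.03 CPM), and mostly unnamed transcripts such as Gm9869 and Gm15882 (-1.82 ± 0.34 and -1.61 ± 0.22). Chrna5, a nicotinic receptor subunit, Sh2d1a, known as a lymphocyte adaptor, and Rnf183, a ubiquitin ligase, fell by 1.34, 1.13 and 1.15.

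Between 1d and 3d, the largest falls among genes called against both groups included those of the unnamed transcript 9330175E14Rik (10.6 to 0.945 CPM) and of Tnnt2, cardiac troponin T. Tnnt2 read 1.32 to 3.03 CPM in NB with a median of 1.73, 63.6, 67.1, 58.8 and 55.7 CPM at 1d, and 10.6, 10.2, 8.01 and 9.88 CPM at 3d. The 3 groups were separate, with 3d above NB by 2.13 ± 0.18 and below 1d (-2.60 ± 0.20). Scube1, a secreted surface protein, fell alongside, from 29.1 to 5.27 ± 0.611 CPM against 1.63 ± 0.467 in NB. The largest rises over 1d after Acp5 were of BC055402 (7.90 CPM at 1d, 52.9 ± 6.86 at 3d, 28.6 ± 2.12 in NB) and Mki67. Olfm4, olfactomedin 4, went from 15.7 ± 1.74 CPM in NB through 5.25 at 1d to 19.8 ± 0.587 at 3d.

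Markers of cells outside the retina were measured beside these results. Lens genes differed by library in every group: Cryaa, the alpha crystallin of lens fibres, read 258, 464, 4960 and 7770 CPM at 3d and 94.7 to 4160 CPM in NB, and the list summed to 755.6 to 18010 CPM at 3d and 298.4 to 9269 in NB. Library 3d 1 was the lowest 3d library for all 20 tested lens genes. Of the 20, 1, Cryge, was called, and that call ended without 3d 2, 3d 4, NB A1, NB A2, NB B1 or NB B4. Libraries 3d 3 and 3d 4 were the high ones; the protocol removes the lens before the retina, and the part of lens material in other results was not tested. Of 22 tested RPE markers 5 rose and 1 fell, but 1 rose and 2 fell with NB B1 to B4 alone and 1 to 7 rose as single libraries were left out. The 5 rises are near the 19.3% of all genes called higher. Library 3d 1 was the lowest 3d library for 20 of the 22. Rpe65, the isomerase of the RPE, read 34.3, 62.2, 63.6 and 59.1 CPM at 3d, library 3d 1 being low, and 56.1 to 69.9 in NB with a median of 65.2 (-0.27 ± 0.18, adjusted p = 0.227); at 1d it had read 20.3, 23, 22.6 and 11.6 CPM.

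Lymphocyte and granulocyte markers were mostly not tested here. Of 23 T and NK cell genes 20 were not tested, and of the 3 tested 1, Thy1, rose, which neurons express. Of 9 B cell genes 2 were tested, and Ighm was called (0.54 ± 0.22, adjusted p = 0.0495) in the fit as given but not without any 1 of 3d 1, 3d 2, 3d 3, NB A1, NB A2, NB B1 or NB B4. Of 14 neutrophil genes 2 were tested and both rose: Mmp9, which other cells make, by 0.66 ± 0.11, and Csf3r, the G-CSF receptor, which read 0.398 to 0.971 CPM in NB with a median of 0.678, 0.523 to 0.993 at 1d, and 3.47, 4.37, 2.22 and 2.00 CPM at 3d. Csf3r was above both groups in every 3d library (1.51 ± 0.20, adjusted p = 7.54e-06), and microglia express it too. Among these groups Csf3r reached 1 CPM only at 3d, so its entry into the test was tied to its rise. None of 7 tested surface epithelium genes was called.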

How the data were processed

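Retinal RNA libraries of 4 groups (NB 6, 6h 3, 1d 4, 3d 4) were used; other tissues and the ATAC libraries were not analysed here. Each group came from the labels; the NB columns could be matched to their group but not to single animals. Per the submitters' processing notes, Trimmomatic, STAR, edgeR and MACS2 were used with build GRCm38, without versions or roles; the read counter is not given in the sources used here. The deposited signal values are CPM on the authors' effective library sizes, not raw counts: 100% of values per library were whole multiples of 1 read within 0.01 of a read. Library 1d 2 stayed out of the count tests, although its values were whole multiples too. Depth was recovered from those multiples. The design had assumed plain CPM, and the test for log CPM was kept for these rescaled values; edgeR on the recovered reads called 7423 genes.

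Genes with at least 1 CPM in 3 libraries were tested with limma 3.58.1 (R 4.3.3) on log2(CPM + 0.5), all 4 groups in 1 fit with a trended prior, and Benjamini-Hochberg adjustment. Each result was recomputed with library totals as the scale or TMM, without the filter, with 0.1 or 2 added before the log, with the compared groups alone, NB B1 to B4 alone, a replicate block, each library left out, and edgeR 4.0.16 and DESeq2 1.42.0 on the recovered reads. The test was checked on simulated data. There few genes changed, evenly up and down, so the check does not cover the differing column sums. The gene lists, and the members shown by library, were chosen with earlier results of these data known. Genes named are list members, the 25 largest changes against NB in each direction and the 10 largest against 1d among genes whose groups do not overlap, and the deleted genes; Xist, Ddx3y and Olfm4 were added after their values were seen. Replicate numbers were not taken to pair the samples. Promoter windows are RefSeq's, and 4 motifs were searched on both strands. Some members of the lists are counted but not reported here by name.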

Additional observations from a re-analysis of the deposited data

Results flagged for a closer look

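Single libraries stood apart within their group, by the gap to the nearest library as a share of the group's range, in 8 of 138 groups checked; chance gives about 1 in 20. Aqp4 read 257 CPM in library 3d 1, above the other 3d libraries, and Rpe65 read 34.3 CPM in the same library, below them. Atp6v0d2 read 0.0332 CPM in NB A2 and 0.0828 CPM in 1d 4, where the other libraries of those groups had no read. Trem2 read 1.18 CPM in NB B4, Top2a 1.76 CPM in NB B1 and Cxcl10 0.664 CPM in NB A2, each the highest of its group. Fgf2 read 54.3 CPM in 1d 3, the lowest of its group.

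For 34 of the 46 genes shown by library, the difference between 3d and 1d passed limma's test over all genes, so that their changes from NB at these times differ. Some of the 46 were chosen for a large change against 1d, so this count was partly set in advance. Over all genes tested, 9.79% were higher and 11.6% lower than at 1d. On the log2 scale 3d was above 1d among photoreceptor and RPE genes by 0.60 for Gnat1, 0.70 for Nrl, 0.42 for Sag, 1.52 for Opn1sw and 1.48 for Rpe65, and for Tnfaip3 by 0.60. Among Muller glia genes it was above by 2.10 for Glul, 0.79 for Rlbp1 and 0.75 for Aqp4. Among phagocyte, complement and class II genes the differences were 1.56 for Csf1r, 1.69 for P2ry12, 3.58 for Acp5, 1.95 for Atp6v0d2, 1.72 for Trem2, 2.10 for Adgre1, 1.85 for C1qc, 1.01 for H2-Aa and 1.41 for Csf3r. Mki67, Top2a and Thbs1 were above 1d by 2.35, 1.83 and 1.14.

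Lower than at 1d were the reactive and signalling genes A2m (-1.24), Lif (-2.34), Socs3 (-2.28), Osmr (-1.16), Fgf2 (-0.82), Mt2 (-0.64) and Fosl1 (-2.36). The same held for Gnb3 (-0.56), Vwf (-0.50), Tnnt2 (-2.60), Irgm2 (-1.36), Cxcl10 (-2.44) and Ccl2 (-1.93).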

How the results depend on the processing

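The count of 7316 genes called against NB stayed within 1.5 times of itself under every alternative run, from 5886 with the replicate block to 7804 under scaling to library totals, and leaving out single libraries gave 6437 to 7203. The count against 1d, 3626, ranged from 2829 with the compared groups fitted alone to 3789 without 1d 3. No gene named by list or rule reversed. The block was run on NB B1 to B4, 1d and 3d, where the same libraries without it gave 5962 and 3290 calls against 5886 and 3229 with it. Same-numbered NB and 3d libraries had deviations correlated at -0.125, 0.147, -0.047 and -0.072, and same-numbered 1d and 3d libraries at -0.319, 0.227, -0.24 and 0.185. With 4 libraries a group, these values cannot decide whether the numbers pair the samples. Of 222 named genes, scaling to library totals ended 13 calls and added 7, NB B1 to B4 alone ended 6, and the block ended 7, as did its libraries without the block. Counts called higher or lower within the lists moved by over 1.5 times in 27 of 106 cases under scaling to library totals in 16 under the block and in 14 in its libraries without the block. The endothelium list gave 6 higher and 1 lower with and without the block, and the cell cycle list 6 and 2 with it and 8 and 3 without it. Promoter windows cut to the bases before the start left 10 interferon windows with the core in place of 14. Depth limits the weakly read genes most: 1 read was worth 0.0691 to 0.0716 CPM at 3d and 0.0332 to 0.107 CPM in NB.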
